A study of Mus musculus with 12 samples.

Results

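RNA bound to the tagged ribosomes of sensory neurons was compared with total RNA in mouse dorsal root ganglion (DRG) material given both AAV-shGpr151 and AAV-e5'UTR. Libraries were chosen by their labels alone. They are the 3 immunoprecipitated (IP) and the 3 input columns of this treatment, 6 of the 12 columns deposited. Of 14675 gene IDs in the table, 8085 passed the filter on low counts and were compared.

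The RiboTag method marks the ribosomes of one cell class. Cre recombinase switches on a ribosomal protein gene, Rpl22, that carries an HA epitope, and an antibody against HA then pulls down ribosomes with the mRNAs on them. The input is total RNA of the lysate and so also holds RNA of glia, immune, vessel, connective tissue and blood cells, RNA in nuclei and mitochondria, and RNA that is not translated. An IP to input ratio therefore joins the share of an RNA that lies in the tagged cells and the share of it that is on ribosomes. These cannot be told apart in this design, nor can fewer cells of a type and less RNA per cell.

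All mice were RPL22HA+/+;Advillin-Cre+ adults, so Cre was under the control of Advillin, which sensory neurons express. The IP and input groups described here both carried AAV-shGpr151, which encodes a short hairpin RNA against the receptor gene Gpr151, and AAV-e5'UTR, whose insert the labels do not identify. The second treatment, AAV-shGpr151 alone, has an IP and an input group of the same make and is used below only as a second pair. No group without the hairpin was analysed here, and the labels do not say how many animals a library holds. The design text refers to cultures of preconditioned neurons, whereas the extraction protocol refers to fresh ganglia, and which of these was sequenced is not clear from the labels.

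The input columns held 975403 to 977366 estimated counts and the IP columns 1514948 to 1517685. Within a group the totals differed by 0.201% and 0.18% of their mean. A chi-square test between the columns of a group passed 0.05 for 7.66% of genes in the input and 7.24% in the IP, little more than counting noise gives. The 3 columns of a group were therefore counted as 1 sample, a pool with 2928926 counts in the input and 4549204 in the IP. With 1 pool a group the IP to input ratio has no replicate check and no p-value is given. Each ratio has an exact Clopper-Pearson 95% interval, which covers counting error only, because the reads come from PCR-amplified cDNA. A gene was called higher or lower in IP where this whole interval lay past 2-fold. Levels are in CPM, that is, relative to the library size after TMM scaling, and a count of 0 allows up to 1.39 CPM in the input pool and 0.487 CPM in the IP pool.

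On the TMM scale more RNAs were called lower than higher in IP past 2-fold. This balance turned over when the libraries were scaled by their totals, and it was nearly even with the interval past 1-fold. Of the 8085 genes, 726 (8.98%) were higher in IP and 1843 (22.8%) were lower. Over the protein-coding genes, 9.91% were higher and 13.1% lower, the shares to set beside the list counts below. The median log2 ratio was 0.11 and the quartiles were −1.26 and 1.004, and 53.2% of genes had a ratio above 0. With the interval past 1-fold on the same scale, 2824 genes were higher and 2894 lower. Neuronal, secretory, stress-response, chaperone, tubulin and glycolytic mRNAs were on the high side, whereas mitochondrially encoded RNAs, noncoding RNAs, hemoglobin and glial mRNAs were on the low side. The scale matters for small ratios. When the libraries were scaled by their totals, every log2 ratio moved up by 0.88, and 2476 genes were higher against 1238 lower. Because every ratio moved up, none of the 726 genes called higher could lose that call. Of the 1843 called lower, 1238 kept theirs on this scale. When scaled by the counts of protein-coding genes alone, 1574 were higher and 1476 lower.

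**Figure D1:**
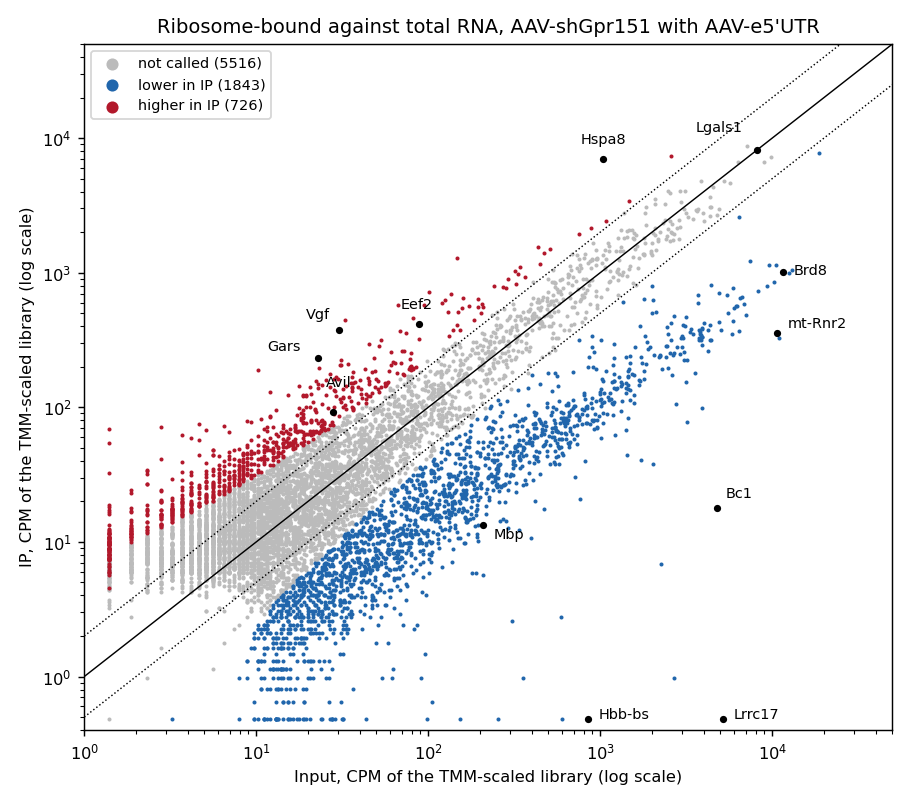
Level of each of the 8085 genes in the input pool (x axis) and the IP pool (y axis), both in CPM of the TMM-scaled library on log axes. Solid and dotted lines mark equal levels and 2-fold differences, colours mark the calls, and values below the level of 3 counts are drawn at that level. The lower edge holds Lrrc17 and the hemoglobin gene Hbb-bs, while Hspa8 and Vgf stand above the upper line.

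The neuronal identity of the pull-down was checked first. Avil encodes advillin, an actin-binding protein, and its promoter drives the Cre. It had 19, 22 and 19 counts in the input columns and 187, 212 and 166 in IP. The pool ratio was 3.29-fold (log2 1.72, 95% interval 1.33 to 2.13). Of the 29 sensory neuron identity genes compared, 8 were higher and 2 lower, with a median log2 of 0.75. The nociceptor sodium channel gene Scn10a had 5 input and 116 IP counts (log2 3.02, 1.75 to 4.67). Ret, a receptor for GDNF-family ligands, was 5.44-fold higher, and the surface glycoprotein gene Thy1 was 5.32-fold higher. The neurotrophin-3 receptor gene Ntrk3 (log2 −2.46, −3.20 to −1.75) and the SNARE gene Snap25 (−1.26, −1.46 to −1.06) were lower. Rpl22, the tagged gene itself, had 453, 455 and 419 input counts and 751, 763 and 785 in IP. Its log2 ratio was −0.73 by TMM and 0.16 by library totals, so its direction depends on the scale.

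Gpr151, the gene the hairpin targets, encodes an orphan receptor. It had 8, 9 and 12 counts in the input columns and 34, 44 and 50 in IP. In CPM the pools stood at 13.5 and 20.8, and the log2 ratio of 0.62 (0.03 to 1.26) was not called.

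Transcripts for axon injury and regeneration were mostly above the middle of the distribution. Of 45 genes compared, 16 were higher and 2 lower, and 38 had a log2 ratio above 0 (median 1.05), where 53.2% of all genes compared did. Sox11, a transcription factor of growing neurons, had 9, 9 and 4 input counts and 85, 88 and 81 in IP, and Jun, the AP-1 factor, had 22, 14 and 20 against 207, 197 and 209. The pool ratios of Sox11 and Jun were 4.03-fold and 3.82-fold. Atf3, a further injury-induced factor, was at log2 0.90 (0.68 to 1.14) and was not called. Cebpb, which encodes a C/EBP factor, stood highest in the list on only 3 input counts (log2 3.09, 1.48 to 5.40). Itga7, the laminin-binding integrin α7, was 6.56-fold higher and Hspb1, a small heat shock protein, 5.06-fold. Nrn1, which encodes neuritin, was at −2.69 (−3.23 to −2.18) and Klf6, a zinc finger factor, at −1.94 (−2.22 to −1.66), and these were the members called lower.

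mRNAs for neuropeptides and secretory granule proteins spread over both sides of the distribution. Of 21 genes, 7 were higher and 3 lower (median 1.14). Vgf, a neuronal granule protein, had 19, 18 and 28 input counts and 758, 761 and 793 in IP. This 12.4-fold ratio (log2 3.63, 3.28 to 4.01) was the largest in the list. The prohormone convertase gene Pcsk1 was 8.73-fold higher, its granin-like inhibitor gene Pcsk1n 6.05-fold and the granin gene Scg2 4.84-fold. Gal, the galanin precursor, was abundant in both pools with 3877 and 3914 counts, which gave a log2 ratio of −1.50 (−1.57 to −1.44). Tac1, the substance P precursor, was at −2.52 (−3.08 to −1.97) and Scg5, which encodes the 7B2 chaperone of convertase 2, at −1.76. Synaptic vesicle and exocytosis genes had 9 of 32 members higher and 1 lower (median 1.17). The synaptotagmins Syt5 and Syt4, calcium sensors of exocytosis, were higher by 2.78 and 2.59 on the log2 scale, and the vesicle coat gene Syn1 was 4.86-fold higher. Snap25 was the member called lower.

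Ion channel genes were sparse, with 26 of 45 listed genes passing the filter. Of these 5 were higher and 3 lower (median 0.72). Kcna2, a potassium channel gene, had 34 input and 6 IP counts (log2 −4.02, −5.56 to −2.75).

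The integrated stress response list, which holds targets of the factor ATF4 and amino acid synthesis genes, had the highest median of all 33 lists. Of 21 genes, 11 were higher and 0 lower, with a median log2 of 1.65. Asns, the asparagine synthetase, had 16, 16 and 13 input counts and 251, 267 and 258 in IP (6.02-fold). The amino acid transporter gene Slc7a5 was 5.78-fold higher and Chac1, a glutathione-degrading enzyme, 5.64-fold. Nupr1, a small stress-induced nuclear protein, was the lowest member at −0.83 (−1.03 to −0.63), a value that became 0.05 by library totals. The aminoacyl-tRNA synthetases, which charge tRNAs for translation, had 8 of 20 members higher and 2 lower (median 1.36). Aars, the alanyl enzyme, had 10, 9 and 7 input counts and 267, 271 and 261 in IP, a 10.7-fold ratio. Gars, the glycyl enzyme, had 15, 16 and 18 against 445, 483 and 505, a 10.2-fold ratio. Cars and Wars were 6.63-fold and 5.77-fold higher, whereas Kars (log2 −2.08, −2.19 to −1.98) and Tars (−2.02, −2.25 to −1.79) were lower.

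Since these genes stood high together, their promoters were searched for the C/EBP-ATF response element, to which ATF4 binds, as TGATGNAAT or its reverse complement ATTNCATCA, on either strand of the 250 bases before the start site. The promoters are RefSeq entries of the build GRCm38.p6, not the build of the deposited counts, and 32 of the stress-response and synthetase genes compared had one. The element was found in 3 of these 32 (9.38%), in 26 of 5703 genes compared that had an entry (0.456%) and in 246 of 27025 genes with an entry (0.91%). By call, it was found in 4 of 543 genes called higher (0.737%) and in 4 of 871 called lower (0.459%). A link between the element and the ratio was not tested. No other motif was searched. Windows of 30 bases around the match are shown for Gars and Nupr1, with the element in capitals, read 5′ to 3′ on the strand of the gene.
Gars, chr6:55037960-55037989, plus strand: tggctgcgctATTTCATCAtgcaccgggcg
Nupr1, chr7:126625562-126625591, minus strand: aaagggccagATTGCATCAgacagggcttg
Both lie upstream of the start site, with the first base of the element 31 and 111 bases before it. Of the 3 genes with the element 2 were called higher, Gars among them, while Nupr1 had the lowest ratio of the stress-response list. The match describes the sequence only.

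Cytosolic chaperones had 14 of 29 members higher and 3 lower (median 1.27). Hspa8, the constitutive HSC70 chaperone, had 752, 728 and 744 input counts and 14339, 14534 and 14342 in IP. Its ratio of 6.79-fold (log2 2.76, 2.70 to 2.82) put it among the abundant mRNAs of the IP pool, at 7011 CPM against 1033 in the input. Cct8, a subunit of the CCT chaperonin, was 6.76-fold higher and the co-chaperone gene Bag3 5.76-fold. St13, a co-chaperone of HSC70, went the other way at −4.05 (−4.12 to −3.99), as did Ahsa1 and Cdc37, co-chaperones of HSP90, at −1.22 and −1.17. St13 had 12477 input counts, and the labels do not say how reads from overlapping genes were shared out. The identity of its signal is therefore uncertain. Chaperones of the endoplasmic reticulum had 3 of 26 members higher and 0 lower (median 0.87), where 9.91% of protein-coding genes were higher. Hspa5, the HSP70 of this compartment, led them at 3.26-fold. For the translocon and signal peptidase the counts were 1 higher and 3 lower of 30, with a median of −0.13 that became 0.75 by library totals. Srp54a, the GTPase of the signal recognition particle, was 5.72-fold higher, while Rpn2, a ribophorin of the oligosaccharyl transferase, was at −2.60 (−2.67 to −2.53) and Sec62, a translocon partner, at −1.66. The limit given for St13 also holds for Rpn2, which had 5560 input counts where the other ribophorin gene Rpn1 had 175.

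**Figure D2:**
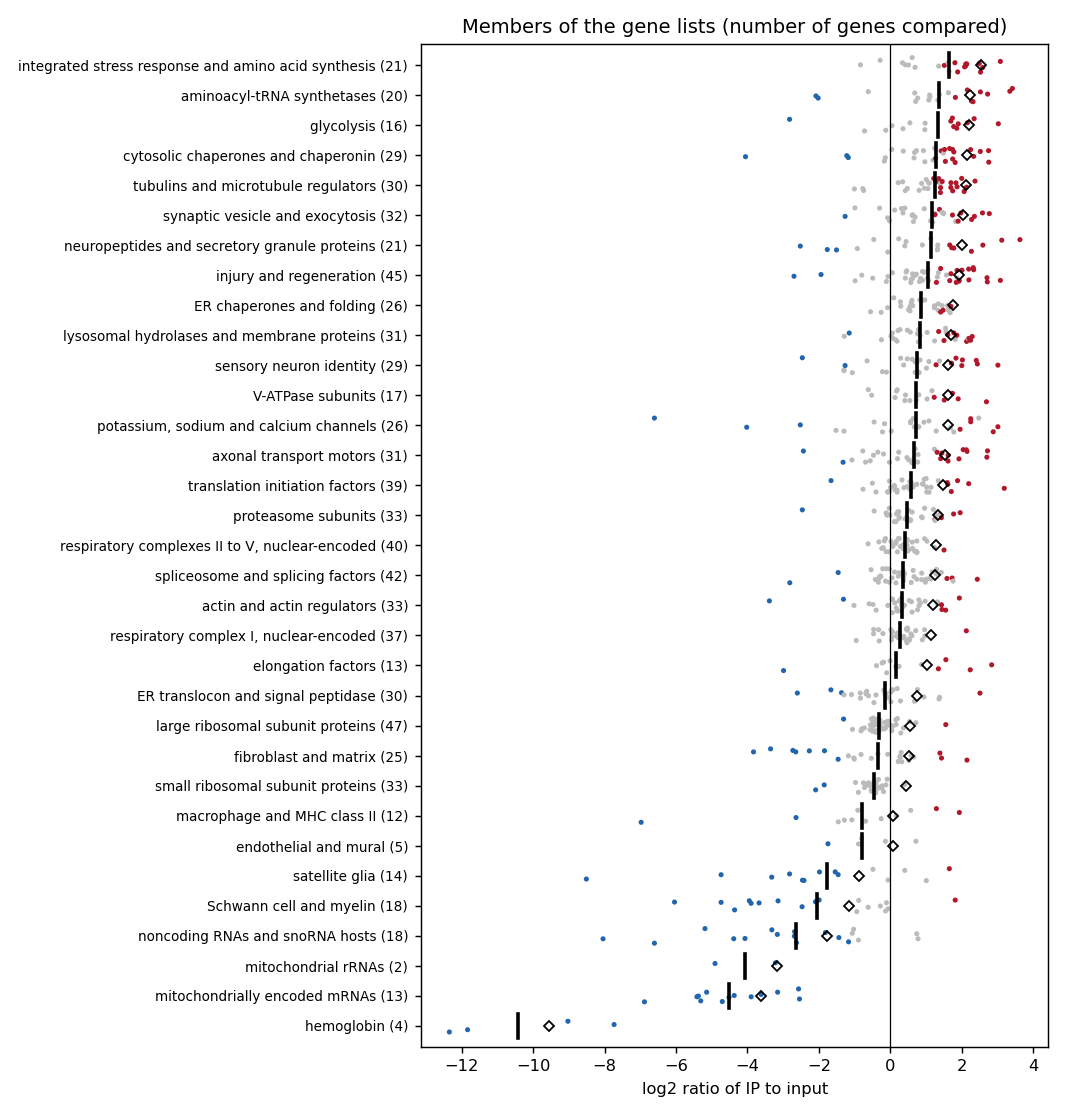
log2 ratio of IP to input (x axis, TMM scale) for every compared member of the 33 gene lists (y axis, number compared in brackets). Points are genes, red where called higher, blue where called lower and grey otherwise, with vertical position within a row random, black bars are list medians, and open diamonds are the medians after scaling by library totals. The medians run from −10.4 for hemoglobin to 1.65 for the integrated stress response.

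The machinery of translation was divided. The list of elongation factors and related genes had 4 of 13 genes higher and 1 lower (median 0.16). Eef2, the translocation factor, had 58, 65 and 67 input counts and 898, 843 and 834 in IP (4.73-fold), and the tRNA-delivering factors Eef1a2 and Eef1a1 were 7.17-fold and 2.95-fold higher. The member called lower was Tpt1, which encodes the translationally controlled tumour protein and not an elongation factor, at −2.99 (−3.11 to −2.87). Initiation factors had 6 of 39 higher and 1 lower (median 0.59), where 9.91% of protein-coding genes were higher and 13.1% lower. Eif2b5, the catalytic subunit of the exchange factor eIF2B, was highest at 9.17-fold on 4 input counts, and Eif3f and Eif3d, subunits of eIF3, were 4.59-fold and 3.28-fold higher. The eIF2 gamma subunit gene Eif2s3x was at −1.66 (−1.94 to −1.38).

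Ribosomal protein mRNAs lay a little below the middle of the distribution. Of 47 genes of the large subunit 1 was higher and 1 lower, and of 33 of the small subunit 0 were higher and 2 lower. On the TMM scale 11 of the 47 and 1 of the 33 had a log2 ratio above 0, where 53.2% of all genes compared did. Their medians of −0.32 and −0.45 became 0.56 and 0.43 by library totals, so neither group has a direction that holds on both scales. Both medians lay below those over protein-coding genes on either scale, which were 0.32 by TMM and 1.21 by library totals. Within the acidic stalk proteins the ratios were opposite. Rplp2 had 190, 247 and 280 input counts and 2174, 1931 and 1943 in IP (log2 1.56, 1.45 to 1.67), whereas Rplp1 had 4578, 4583 and 4587 against 5339, 5318 and 5275 (−1.30, −1.34 to −1.27; −0.42 by library totals). Rps12 of the small subunit was at −1.85 (−1.95 to −1.75). Many of these genes have pseudogene copies, and the labels do not say how reads shared by copies were assigned, so single members are uncertain. As a share of the library the large subunit genes held 7.49% of input counts (95% interval 7.46 to 7.52) and 11.6% of IP counts (11.5 to 11.6), and the small subunit genes 5.27% and 7.07%.

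Respiratory chain genes differed by the genome that encodes them. The 13 mitochondrially encoded mRNAs, which are translated by the ribosomes inside mitochondria and not by those that carry RPL22, were all lower, with a median log2 of −4.52, against 22.8% of all genes. They made up 1.4% of the input counts (1.38 to 1.41) and 0.142% of the IP counts (0.139 to 0.145). mt-Nd4, a complex I subunit, had 2294, 2308 and 2298 input counts and 150, 153 and 174 in IP (log2 −5.37, −5.51 to −5.24). The smallest depletion was that of mt-Co2 (−2.54) and mt-Co1 (−2.57), subunits of cytochrome c oxidase, and the largest that of mt-Atp8 (−6.88, −7.70 to −6.17). The mitochondrial ribosomal RNAs mt-Rnr2 and mt-Rnr1 were at −4.91 and −3.21. Nuclear-encoded subunits stayed near the middle. Of 37 complex I genes 1 was higher and 0 lower (median 0.27), and of 40 genes of complexes II to V 1 was higher and 0 lower (median 0.41). Atp5b, the catalytic beta subunit of ATP synthase, was the member of complexes II to V called higher, at 2.85-fold. As shares of the library the complex I genes held 1.48% of input and 3.5% of IP counts, and the genes of complexes II to V 2.66% and 6.35%.

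**Figure D3:**
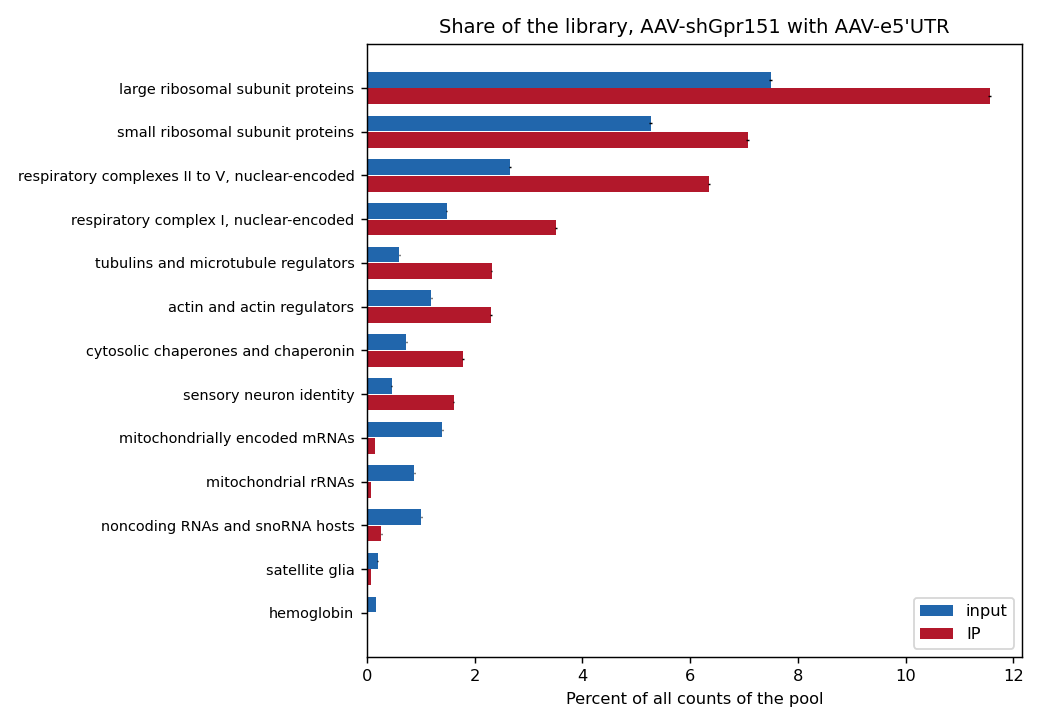
Percent of all counts of the input (blue) and IP (red) pool held by genes of 13 of the lists, with exact 95% intervals that cover counting error only. Nuclear-encoded respiratory, ribosomal protein and cytoskeletal genes hold larger shares in IP, and mitochondrially encoded mRNAs go from 1.4% to 0.142% of the counts.

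Glycolysis genes had 8 of 16 members higher and 1 lower (median 1.34). The platelet-type phosphofructokinase gene Pfkp was 8.17-fold higher (log2 3.03, 2.56 to 3.54), the hexokinase gene Hk1 5.11-fold, the neuronal enolase gene Eno2 4.47-fold and the isomerase gene Gpi1 3.75-fold. The aldolase isoform gene Aldoc, which astrocytes and related glia express, was the member called lower (−2.82, −3.24 to −2.41).

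Genes of tubulins and their regulators stood high. Of 30 tubulin and microtubule regulator genes, 15 were higher and 0 lower (median 1.25), and their share of the library was 0.602% in the input and 2.31% in IP. Tuba1c and Tubb4a, an alpha and a beta tubulin, were 4.41-fold and 4.01-fold higher, and the tubulin cofactor gene Tbcc 5.19-fold. Mapt, the gene for the axonal protein tau, had the lowest ratio, with 133 input and 190 IP counts, and was not called. Actin and its regulators had 4 of 33 genes higher and 2 lower (median 0.32), near the 9.91% higher and median of 0.32 over protein-coding genes. Coro1a and Wdr1, which act in actin turnover, were 3.83-fold and 2.94-fold higher. Arpc5l, which belongs to the Arp2/3 complex, was at −3.38 (−3.49 to −3.28). It had 3613 input counts where Arpc5 had 46. The labels do not say how reads from overlapping genes were shared out, so the identity of the Arpc5l signal is uncertain. Among axonal transport motors 11 of 31 were higher and 2 lower (median 0.66). Dync1h1, the dynein heavy chain, had 11, 17 and 12 input counts and 258, 259 and 241 in IP (6.62-fold). Dctn1, the large dynactin subunit, was 4.45-fold higher, and the kinesin-2 genes Kif3b and Kif3c were 6.54-fold and 4.39-fold higher. Kif21a, a kinesin of another family, was at −2.43 (−2.63 to −2.23), and the dynein light intermediate chain gene Dync1li2 at −1.32.

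**Figure D4:**
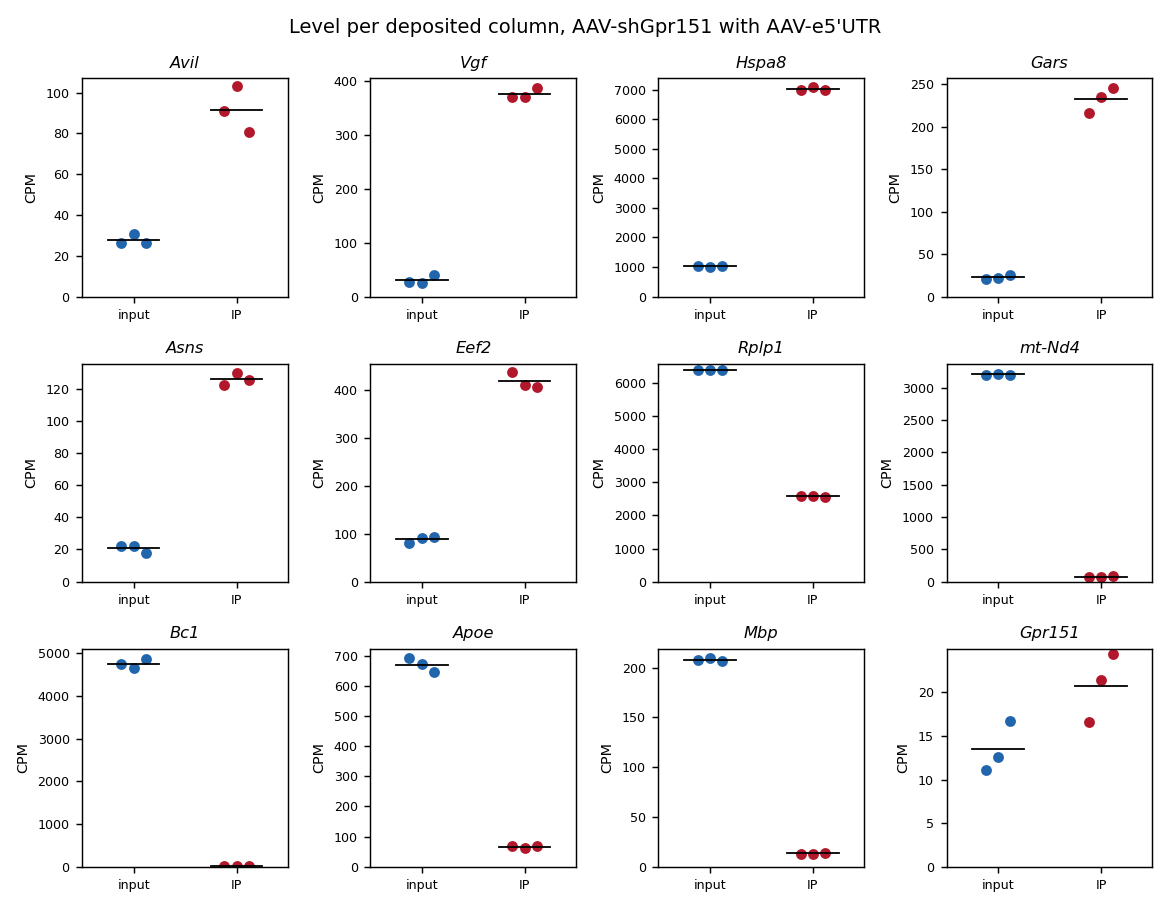
Level of 12 named genes in each deposited column in CPM of the TMM-scaled pool (y axis, starting at 0), with the input in blue and IP in red and lines at the pool level. Points within a group are columns of 1 pool, not biological replicates. For Gpr151 the highest input column and the lowest IP column lie together.

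Of 33 proteasome genes, 4 were higher and 1 lower (median 0.46), near the share of 9.91% higher and the median of 0.32 over all protein-coding genes. Psmd2 and Psmd4, subunits of the regulatory particle, were 3.90-fold and 3.43-fold higher. Adrm1, a ubiquitin receptor of the proteasome, was lower on few counts, with 25 in the input and 0, 8 and 5 in the IP columns. Vacuolar proton pump genes had 5 of 17 higher and 0 lower (median 0.73), with the accessory subunit gene Atp6ap1 at 6.49-fold and the B2 subunit gene Atp6v1b2 at 3.75-fold. Lysosomal genes had 9 of 31 higher and 1 lower (median 0.84). Psap, the saposin precursor, was 4.76-fold higher, while the cathepsin gene Ctsl was at −1.15 (−1.22 to −1.08; −0.26 by library totals). Splicing factors had 3 of 42 higher and 2 lower (median 0.37), also near the values over all protein-coding genes, with Sf3a3 of the U2 particle at 5.43-fold and Snrnp70 of the U1 particle at −2.81 (−2.94 to −2.69).

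RNAs without a coding role were depleted as a class. Of 281 genes that RefSeq calls lncRNA, 201 (71.5%) were lower and 5 higher, with a median log2 of −2.60 (−1.72 by library totals). Of 6713 protein-coding genes, 881 (13.1%) were lower and 665 higher, with a median of 0.32. A biotype was found for 7048 of the 8085 genes. In the list of known noncoding RNAs and snoRNA host genes 13 of 18 were lower and 0 higher. Bc1, a small neuronal RNA that is not translated, had 3403, 3344 and 3489 input counts and 44, 35 and 32 in IP (log2 −8.04, −8.33 to −7.78). Malat1, a nuclear RNA, had 522, 532 and 588 against 38, 49 and 42 (−5.19). Gas5, a snoRNA host whose spliced RNA does meet ribosomes, was at −0.89 (−0.95 to −0.82) and was not called. The 705 compared IDs without a symbol had 538 lower and 37 higher, and they held 17.5% of the input counts and 5.76% of the IP counts.

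The most abundant genes of the input were mostly low in IP. Of 40 IDs with at least 10000 counts in the input pool, 31 (77.5%) were lower and 0 higher. Over all genes compared, 22.8% were lower and 8.98% higher. A set picked by its input count leans to low ratios, because the input is the denominator, so these counts say nothing on abundance itself. Together the 40 held 22.4% of the input counts and 11% of the IP counts. Unc13d, Brd8 and Gm17494 were among the 5 most abundant. Unc13d and Brd8, known for roles in granule release and in chromatin, had 26880 and 24792 input counts and log2 ratios of −3.66 (−3.70 to −3.62) and −3.50 (−3.54 to −3.46). Gm17494 had 40386 input counts and was at −1.28. The remaining abundant genes include ribosomal protein mRNAs and Lgals1, the galectin-1 gene, which was at log2 0.01 by TMM and 0.89 by library totals (17524 and 50539 counts). The labels do not say how reads from repeats or overlapping genes were shared out, so the identity of these signals is uncertain.

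Marker mRNAs of other cells were present in the input and mostly low in IP. The red blood cell genes for hemoglobin had 4924 input and 19 IP counts in all, a share of 0.168% against 0.000418% (0.000251 to 0.000652), and Hbb-bt was at 0 in IP. Hba-a1 and Hba-a2 are closely similar copies, so the division of reads between them is uncertain. Of 14 satellite glia genes 9 were lower and 1 higher (median −1.76). Apoe, which encodes apolipoprotein E, had 496, 481 and 462 against 141, 130 and 142 (−3.32, −3.48 to −3.16), whereas the glutamine synthetase gene Glul was 3.15-fold higher. Of 18 Schwann cell genes 10 were lower and 1 higher (median −2.04). Mbp, a myelin protein gene, had 149, 150 and 148 input counts and 27, 27 and 29 in IP (−3.95, −4.30 to −3.61), and Ncmap, a myelin membrane protein gene, had 69 input counts and 0 in IP. Ngfr, the p75 receptor that neurons also express, was 3.54-fold higher.

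Other marker lists were mixed, and several of their medians changed sign with the scale. Over all genes compared 22.8% were lower and 8.98% higher, and over protein-coding genes 13.1% and 9.91%. Fibroblast and matrix genes had 7 of 25 lower and 3 higher (median −0.34, or 0.54 by library totals), with Dcn, the decorin gene, at −3.83 (−4.19 to −3.48) and Serpinf1, which encodes a secreted serpin, 4.44-fold higher. Macrophage genes had 2 of 12 lower and 2 higher (median −0.80, or 0.09 by library totals). H2-Aa, an MHC class II gene, had 44 input counts and 1 in IP (log2 −6.98, −12.31 to −4.42), and the complement gene C1qa was at −2.64. The members called higher were Lgals3, the galectin-3 gene, with 437 and 3072 counts (log2 1.29, 1.15 to 1.44), and Coro1a, which is also in the actin list. These genes hold most of the list's IP counts. Endothelial and mural genes had 1 of 5 lower and 0 higher. As shares of the library, the satellite glia list held 0.197% of input and 0.0776% of IP counts, the Schwann cell list 0.129% and 0.0811%, the fibroblast list 0.24% and 0.215% and the macrophage list 0.0388% and 0.095%. Their part in the ratios of single neuronal genes was not tested.

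The largest single ratios rested on few counts in 1 pool. Among genes with a symbol and at least 200 counts, the highest was 1 of the gene IDs of Ptp4a1, with 0 and 423 counts. Its ratio was 49.2-fold with the 0 put at the floor of 3 counts, and the lower interval end was log2 5.32. Rbm42, an RNA-binding protein gene, had 0 input counts and 129, 93 and 111 in IP. This is 38.8-fold at the same floor, with a lower interval end of log2 4.97. Gm9774 had 6 input counts, all in 1 column, and 440 in IP (log2 4.68, 3.55 to 6.13). Gp1bb, a platelet glycoprotein gene, had 3 and 201 counts (log2 4.55, 2.98 to 6.84), Bcat1, a branched-chain aminotransferase, 5 and 210 (3.87, 2.63 to 5.51), and Lonp1, a mitochondrial protease, 5 and 198 (3.79, 2.54 to 5.43). At the other end Lrrc17, which encodes a secreted leucine-rich repeat protein, had 3540, 3696 and 3844 input counts and 0 in all IP columns. Its log2 ratio was −13.37 at the same floor, with an upper interval end of −13.07. Akap5, a kinase anchoring protein gene, had 5758 and 6 counts (−11.42, −12.87 to −10.30) and Elp6, an Elongator subunit gene, 4869 and 42 (−8.38, −8.85 to −7.94). How reads from overlapping genes were shared out is not stated in the labels, so the identity of the Lrrc17, Akap5 and Elp6 signals is uncertain.

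The pair from AAV-shGpr151 alone, which shares no library with this one, gave nearly the same ratios. Across the 8085 genes Pearson's r of the log2 ratios was 0.93 and Spearman's rho 0.93. These are descriptions across genes, which are not independent replicates, and both pairs share the protocol and the contrast of fractions. In the second pair 751 genes (9.29%) were higher and 1824 (22.6%) lower. Of the genes called higher here 489 were called higher there, which is 67.4% of the first list and 65.1% of the second. Of those called lower 1685 were shared, 91.4% and 92.4% of the lists, and 1 gene ID, of Ptp4a1, was called in opposite directions. List medians of both pairs were near each other for some lists, as in the integrated stress response (median 1.65 and 1.39), tubulins (1.25 and 1.16) and mitochondrial mRNAs (−4.52 and −4.11). They lay further apart for hemoglobin (−10.44 and −9.54), endothelial and mural genes (−0.80 and −1.45), Schwann cell genes (−2.04 and −1.53) and fibroblast genes (−0.34 and −0.82), and these differences between lists were not tested.

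Few ratios differed between the treatments past 2-fold, though many more had an interval that left out equality. The ratio of the IP to input ratios, with an interval from the counting variances of the 4 pools, lay wholly past 2-fold for 30 of 8085 genes (0.371%), and it left out equality for 1422. Malat1, for example, had a ratio of ratios of −0.86 (−1.18 to −0.53) on the log2 scale. Of the 30 genes past 2-fold, 16 had the higher ratio with AAV-e5'UTR and 14 the lower. In 8 of the 30 a pool was at 0 counts, 17 had under 100 counts in every pool, and 0 of the members of the 33 lists were among them. With edgeR's quasi-likelihood test over the 12 columns, which compares the reads of these pools and not the conditions, 55 genes passed a Benjamini-Hochberg adjusted 0.05 with a log2 difference over 1 in size. At that adjusted 0.05, whatever the size, 413 genes passed, 19 of the 30 among them. The largest difference belonged to Ptp4a1, a phosphatase gene that 2 gene IDs in the table share. One ID had 0 input and 423 IP counts with AAV-e5'UTR and 57 and 73 without it, and the other had 69 and 0 against 17 and 339. Summed over both IDs, Ptp4a1 had 69 and 423 counts with AAV-e5'UTR and 74 and 412 without, so the sum shows almost the same ratio in both pairs.

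**Figure D5:**
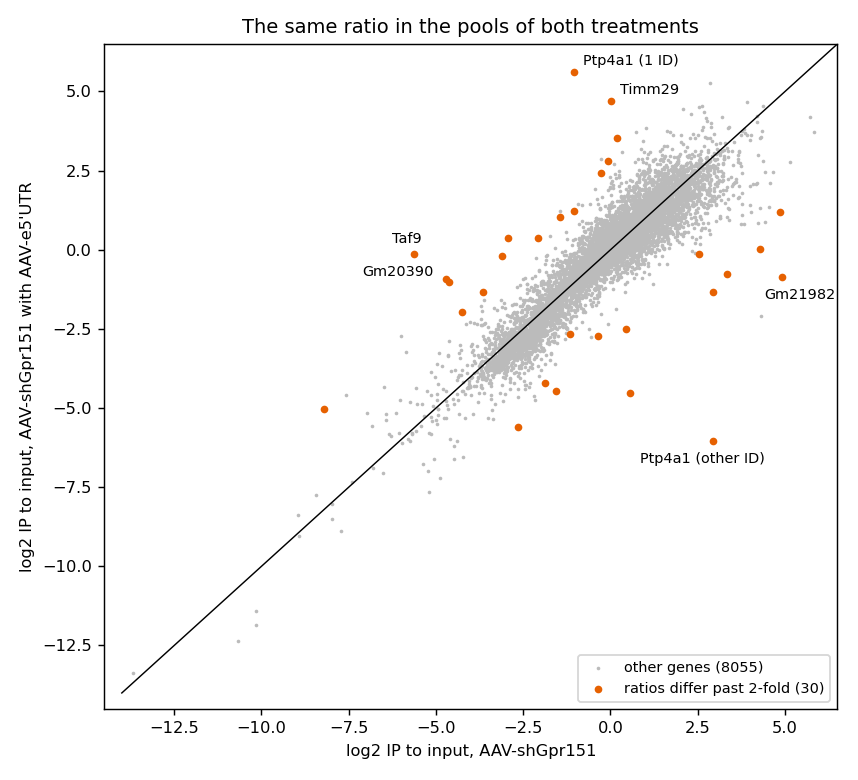
log2 ratio of IP to input of each gene with AAV-shGpr151 alone (x axis) and with AAV-shGpr151 and AAV-e5'UTR (y axis), with a line at equality. The 30 orange points are genes whose ratios differ past 2-fold, grey points are all others, and Pearson's r over all 8085 is 0.93. The IDs of Ptp4a1 lie on opposite sides of it.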

How the data were processed

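Nanopore cDNA libraries of IP and input RNA were quantified by the authors, who deposited 1 table of estimated counts per gene, whole numbers for 14675 gene IDs in 12 columns. Salmon, minimap2 and the build GRCm39 (mm39) are named, without versions or roles, per the submitters' processing notes; no further step is stated there. Symbols matched 13191 IDs, and RefSeq tables gave biotypes and promoters.

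The counts were filtered with edgeR's filterByExpr (10 in a column, 15 in all), which kept 8085 genes, scaled by TMM over the 12 columns and summed over the 3 columns of a group. The text gives the log2 ratio of pooled counts with an exact Clopper-Pearson 95% interval and calls a gene past 2-fold. A pool at 0 was put at the floor of 3 counts. For the ratio of the treatments' ratios, 0.5 was added to each count for the interval; its point value, from plain counts with a 0 at the floor, was set after the data were seen, which changed no call but did change which genes are named. Because each group is 1 pool, tests over columns with edgeR 4.0.16 (quasi-likelihood) and DESeq2 1.42.0 in R 4.3.3 compare the reads of the pools only and are alternatives. Scripts ran in Python 3.11.15 with numpy 2.4.6, pandas 2.3.3, scipy 1.17.1 and matplotlib 3.10.9.

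Replicate numbers were checked for pairing: deviations of same-numbered columns from their group means correlated at 0.0141, 0.0038 and 0.0277, under the 0.1 needed. The calls were tested on simulated data. The simulated counts held counting error only, so that test cannot show how the calls hold under other variation between libraries. The 33 gene lists, the members and the rules were chosen with earlier results of these data known. Named genes were, in each list, up to 4 with the highest and 4 with the lowest ratio among members with at least 30 counts; the 12 highest and 12 lowest genes with a symbol and at least 200 counts; the 10 largest called differences between treatments; the 5 most abundant in each pool; and a fixed set that includes Gpr151, Avil and Rpl22. Alternatives were other scalings, filters, thresholds and tools, and leaving out each column in turn. 2 of them, scaling by protein-coding counts and keeping only genes with a RefSeq biotype, were chosen after seeing the data. Some genes that the naming rule selects, and 1 promoter window, are not reported here.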

Additional observations from a re-analysis of the deposited data

Results flagged for a closer look

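The IP to input ratio differed between AAV-shGpr151 with AAV-e5'UTR and AAV-shGpr151 alone past 2-fold for 30 genes, by the interval of the difference itself. The 10 largest follow, as the log2 ratio with AAV-e5'UTR minus that without. A value with a pool at 0 was computed with that pool at the floor of 3 counts.

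One gene ID of Ptp4a1 was at −8.96, with 69 input and 0 IP counts with AAV-e5'UTR against 17 and 339 without. The other was at 6.66, with 0 and 423 against 57 and 73. Their sums gave nearly equal ratios in both pairs. Taf9, a transcription factor subunit gene, was at 5.51, with 56 and 146 counts against 57 and 0. Timm29, a mitochondrial import gene, was at 4.68, with 1 and 74 counts against 14 and 37.

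Gm21982 was at −5.77, with 19 and 30 counts against 2 and 158, and all 30 IP counts with AAV-e5'UTR lay in 1 of the 3 columns. Gm20390 was at 3.79, with 22 and 33 counts against 191 and 19, and its 22 input counts, and both counts without AAV-e5'UTR, lay in 1 column each. The gene 1700047I17Rik2, the lncRNA Hoxaas3 and ENSMUSG00000142908, an ID without a symbol, were at −5.07, −4.11 and −4.27. All 54 IP counts of 1700047I17Rik2 without AAV-e5'UTR lay in 1 column. Fam117b was at −4.26, with 9 and 26 counts against 1 and 51. In edgeR's interaction test over columns, with Benjamini-Hochberg adjustment, 19 of the 30 passed 0.05. Of the 10 above, Gm20390 (adjusted p = 0.416), Hoxaas3 (0.126), Gm21982 (0.0968) and 1700047I17Rik2 (0.0727) did not. The labels do not say how reads shared by several IDs were assigned, and its part in these differences was not tested.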

How the results depend on the processing

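No called gene among the 282 named changed direction under an alternative that gave it a value. By library totals none could, because the shift of 0.88 is smaller than the log2 of 1 that a call needs. Uncalled genes with small negative ratios, such as Rpl22 and Nupr1, changed sign by library totals. The number of genes higher in IP, 726 in the main analysis, was 2476 after scaling by library totals, 1574 after scaling by protein-coding counts, 2824 with the interval past 1-fold and 96 past 4-fold. Over columns it was 1877 with edgeR without the replicate block, 1856 with the replicate block and 1822 with DESeq2. The number lower, 1843, was 1114 among genes with a RefSeq biotype, 2894 past 1-fold and 1150 past 4-fold. The 30 differences between treatments became 63 with no filter, 1422 past 1-fold and 9 past 4-fold, and over columns 55 with edgeR, 48 with the replicate block and 18 with DESeq2. Leaving out 1 column at a time gave 611 to 724 genes higher, 1787 to 1809 lower and 29 to 34 differences. The share of called genes that were higher was 28.3% in the main analysis, 49.4% with the interval past 1-fold, 66.7% by library totals and 51.6% by protein-coding counts. Of the 282 named values, 225 moved by more than their interval by library totals, 177 by protein-coding counts and 24 each with DESeq2 and its size factors. The check found no pairing of columns by replicate number, but it cannot decide this, because the columns of a group differ by little more than counting noise. Each pool is 1 sample, so the spread between animals is unknown, and the input, with fewer counts, limits the precision of ratios for genes high in IP.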

Other observations

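The 6713 protein-coding genes were also compared by their length on the chromosome. In 5 equal groups of genes, from the shortest span to the longest, the median log2 ratio of IP to input was 0.17, 0.37, 0.40, 0.46 and 0.27, and 8.56%, 11.2%, 15.3%, 14.9% and 15.6% of genes were lower. The shortest group held 29.9% of input and 49.0% of IP counts, and the longest 5.80% and 4.48%. Of 48 genes that RefSeq calls pseudogenes, 26 were lower and 2 higher, with a median of −2.36 (−1.47 by library totals).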
